A study of Saccharomyces cerevisiae with 7 samples.

Results

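The transcripts described here are those of mitochondrial ribosomal proteins. Genes were taken as members where the standard name in the R64 gene table is MRPL, MRPS, MRP or RSM followed by a number. No measured value enters this rule, though it was chosen with earlier results of these data known. The rule gave 67 genes, of which 65 have a row among the 6141 rows of the table, and 59 have a value at all 7 times, among 5585 such rows. Of these 59, 35 were grouped with the large and 23 with the small subunit by what is known of the proteins. The 23 include RSM22, which takes part in small subunit assembly. MRP8 is named like the others without being an established ribosomal protein, so it was kept apart. The culture was a budding yeast (Saccharomyces cerevisiae) spo11-Y135F strain, named Spo11Y135F in the labels, in which Spo11, the enzyme that breaks DNA in meiotic recombination, lacks its catalytic tyrosine. It was sampled at 1, 2, 3, 4, 5, 6 and 8 h of meiosis, with 1 array for each time. On every array Cy5-labelled cDNA of the time point was set against a Cy3-labelled mixture of all times, and each gene's value is the log2 ratio of the 2 dyes relative to the same ratio at 0 h. By the sample titles every time carries the same mutation, though the longer descriptions of 1 and 2 h leave it out; no strain with intact Spo11 was analysed here, and the design text speaks of duplicate cultures while each time has a single column.

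The mitochondrial ribosome is the separate ribosome that translates the few proteins encoded in mitochondrial DNA, most of them core subunits of the respiratory chain and of ATP synthase. It has a large subunit, which forms the peptide bond, and a small subunit, which reads the mRNA, and in yeast nearly all of its proteins are encoded in the nucleus and imported. Some descend from bacterial ribosomal proteins and others were added in mitochondria. In growing budding yeast many of these mRNAs are bound in their 3′ ends by Puf3, an RNA-binding protein that promotes their decay on fermentable sugar, and sporulation itself requires respiration.

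The culture showed the meiotic programme: IME2, an early meiotic kinase, was at 3.05 by 1 h, NDT80, the regulator of the middle genes, reached 7.47 by 6 h, and DIT1, a late spore wall gene, 8.52 by 8 h. The array of 6 h stands apart: its column has 5906 values against 5635 in each of the others, and its standard deviation over genes was 1.49 against 0.84 to 1.36 at the other times. Results that rest on it are therefore given with the neighbouring times. A single array per time has no replicate spread, so values at one time are descriptions, and the number of arrays limits the precision. If all columns were divided by one 0 h measurement, an error in it moves all values of a gene together, and differences between times do not contain it; for the 6 h column this point was not given in the sources used here.

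From 1 to 4 h the transcripts of both subunits were moderately below 0 h. Over these 4 hours the large subunit median took the values -0.36, -0.45, -0.63 and -0.58 in turn, and the small subunit median -0.40, -0.52, -0.50 and -0.53. At 4 h this is 1.49-fold below 0 h for the large and 1.45-fold for the small subunit, while the median over all 5585 rows lay between -0.04 and 0.03 over these hours. Nearly the whole set lay on one side: the counts below 0 h were 49, 48, 52 and 53 of 58 subunit genes in turn, the last being 91.4%, where 52.4% of all rows were below 0 h. The genes were also close to each other, with a standard deviation over the 58 of 0.41 at 3 h and 0.44 at 4 h; over all rows it was 0.87 and 1.06. Fewer cells with a transcript and less of it per cell cannot be told apart in a bulk culture.

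Medians at 5 and 6 h were higher, with the highest in the 6 h array, and those at 8 h were back near the early values. The large subunit median was -0.20, 0.34 and -0.48 over the last 3 times, 5, 6 and 8 h, and the small subunit median -0.37, 0.15 and -0.50. Relative to the median over all rows, which was lowest at 6 h, these 6 h medians lay at 0.49 and 0.30. In the interval from 4 to 5 h 44 of 58 genes were higher at the later time, against 48.0% of all rows, and from 5 to 6 h 47 of 58 were, against 48.7%. From 6 to 8 h 47 of 58 were lower, against 51.1%. The median over all rows stayed between -0.15 and -0.05 from 5 to 8 h. The upward difference from 4 to 5 h does not involve the 6 h array and had a median of 0.22 in the large and 0.25 in the small subunit. The 8 h values lay below those of 5 h in 40 of 58 genes, or 69.0%, against 53.5% of all rows, with a median difference of -0.24 against -0.07.

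**Figure D1:**
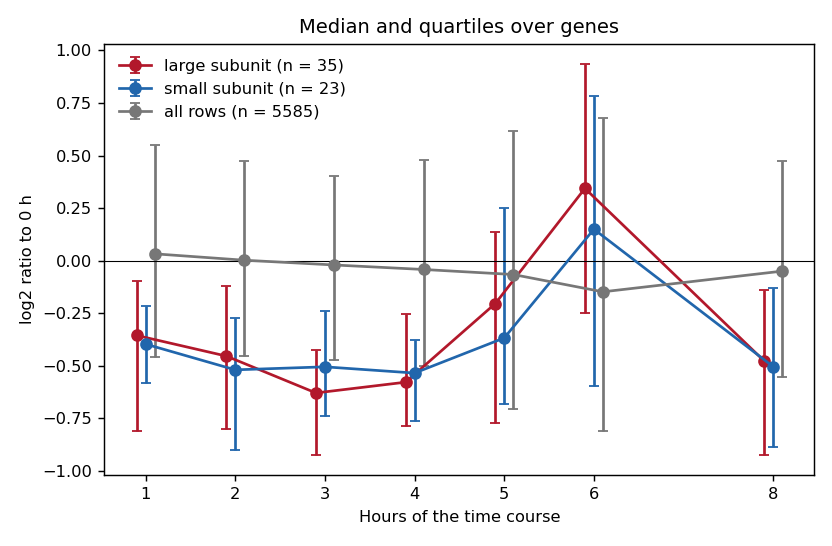
Median log2 ratio to 0 h by hour, with bars from the lower to the upper quartile over genes, for 35 large subunit genes, 23 small subunit genes and all 5585 rows. Both subunit medians lie below that of all rows from 1 to 5 h and at 8 h, and above it at 6 h, and the quartiles of both subunits are wider at 5 and 6 h than at 3 and 4 h.

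With the members named MRPL alone the 6 h median of the large subunit was 0.19. The members lay farther from each other late in the course, with a standard deviation of 0.85, 1.03 and 0.72 over the last 3 times. Over all rows it was 1.36, 1.49 and 1.12 at these times. The columns themselves also widened. All columns were also brought to the same distribution by quantile normalization, which gives all rows a standard deviation of 1.08 at every time. That of the members was then 0.54, 0.56, 0.49 and 0.46 from 1 to 4 h and 0.68, 0.71 and 0.75 for the last 3 arrays. Of the 58 subunit genes 31 had their highest value at 6 h, or 53.4%, against 21.0% of all rows. None had it at 4 h, against only 5.01% of all rows. Lowest values were most often at 3 h, in 14 genes, or 24.1%, against 13.9% of all rows.

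The subunits were set side by side. The small minus large difference of medians lay between -0.19 at 6 h and 0.12 at 3 h and was not tested, since members are not replicates. Over the 7 times the 2 medians had a Pearson correlation of 0.97, given as a description, since both come from the same arrays. Single genes followed their subunit less closely. Against the median of the other members of its subunit, the correlation over 7 times had a median of 0.66 over large subunit genes, from -0.53 to 0.94, and of 0.49 over small subunit genes, from -0.75 to 0.86; over all rows outside the members the median correlation with the member course was -0.09. MRPL38 (uL14 in the ribosomal protein nomenclature) was closest to its subunit with 0.94, and MRPS28 (uS15) farthest with -0.75.

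**Figure D2:**
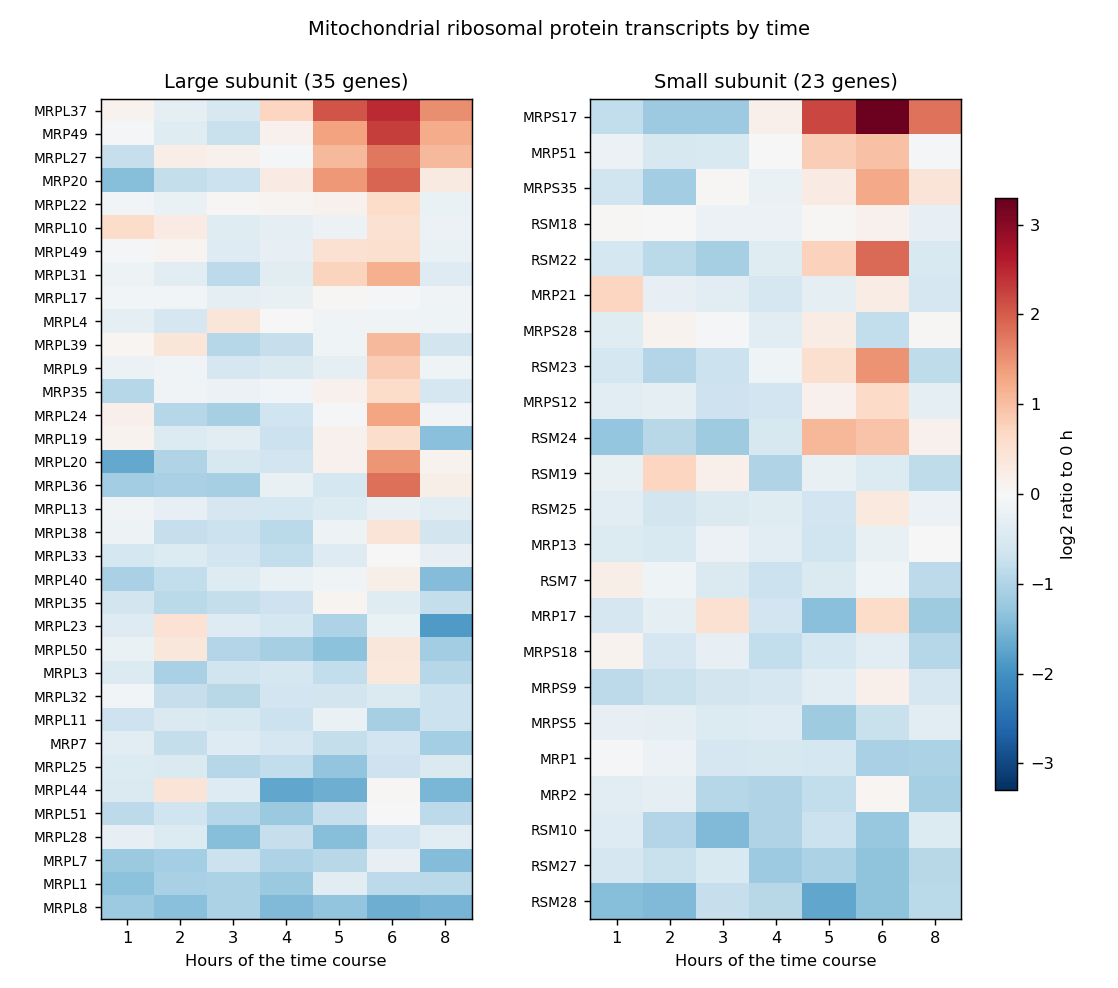
Log2 ratio to 0 h of each large subunit gene (left) and each small subunit gene (right) with values at all times, by hour, sorted by mean over the times with the highest on top. Red is above and blue below 0 h; most rows are pale blue from 1 to 4 h, and the rows at the top of each panel, led by MRPL37 and MRPS17, turn red at 5 and 6 h.

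Counting members past a 2-fold distance shows the members gene by gene. At 1, 2, 3 and 4 h none of the 59 members was at least 2-fold above 0 h, where 10.8%, 8.68%, 7.68% and 11.5% of all rows were. Below 0 h by at least 2-fold were 9 members at 1 h (15.3%, all rows 9.44%), 8 at 2 h (13.6%, all rows 9.35%), 9 at 3 h (15.3%, all rows 8.43%) and 7 at 4 h (11.9%, all rows 10.7%). Of these low members 5 were shared between 1 and 2 h, 4 between 2 and 3 h and 2, MRPL1 and MRPL8, between 3 and 4 h. The same overlap was not counted over all rows, so it is not read as a trait of the members. At 5 h 6 members were above (10.2%, all rows 16.3%) and 10 below (16.9%, all rows 17.4%). At 6 h 13 were above (22.0%, all rows 18.9%) and 6 below (10.2%, all rows 19.5%), and at 8 h 4 were above (6.78%, all rows 12.3%) and 11 below (18.6%, all rows 10.8%). After quantile normalization the counts below were 15 at 2 h, 16 at 3 h and 1 at 6 h, where 12.1% of all rows were below at every time. As deposited, the shares below at 4 and 5 h were near those of all rows, and the share above at 6 h was near that of all rows too.

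A set of members was far above 0 h late in the course, after lying near or below it early. MRPS17, the small subunit protein uS17, which has a bacterial counterpart, was at -0.81, -1.19, -1.21, 0.17, 2.20, 3.24 and 1.80 over the hours 1, 2, 3, 4, 5, 6 and 8. It lay below 0 h at the first 3 times and at 9.46-fold above it at 6 h, the highest value of any member. MRPL37, the large subunit protein mL54, which has no bacterial counterpart, was at 0.12, -0.30, -0.52, 0.70, 2.07, 2.45 and 1.55 over the 7 times, and MRP49, the large subunit protein mL61, at -0.06, -0.40, -0.73, 0.14, 1.33, 2.27 and 1.22 over the 7 times. Both were within 2-fold of 0 h until 4 h and more than 2-fold above it at 5, 6 and 8 h. MRPL27 (mL41) was at -0.75, 0.23, 0.13, -0.07, 1.06, 1.75 and 1.07 over the 7 times, and MRP20 (uL23), a protein at the exit of the peptide tunnel, at -1.41, -0.79, -0.70, 0.28, 1.43, 1.92 and 0.28 over the 7 times. MRPL27 was thus above 2-fold at the last 3 times, like the other 3, whereas MRP20 was so at 5 and 6 h and back within 2-fold at 8 h. At least 2-fold above 0 h at 8 h were 4 members, MRPS17, MRPL37, MRP49 and MRPL27. All 4 were among the 6 so at 5 h and among the 13 so at 6 h. This overlap was not counted over all rows either, so it is not read as a trait of the members. If these columns share one 0 h measurement, an error in it would move all 3 values of a gene together.

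Other members were above 0 h late in the course with less beside their highest value. RSM22, a relative of methyltransferases that takes part in small subunit assembly, was at -0.58, -0.89, -1.10, -0.41, 0.76, 1.87 and -0.50 over the 7 times. RSM23, the yeast relative of the human GTP-binding ribosomal protein DAP3, was at -0.58, -0.96, -0.71, -0.15, 0.53, 1.49 and -0.83 over the 7 times. Both were within 2-fold of 0 h at 5 h and below 0 h at 8 h, so that the 6 h array alone puts them at least 2-fold above it. MRPL36 (bL31) was at -1.14, -1.06, -1.09, -0.25, -0.58, 1.82 and 0.19 over the 7 times, with the value of 6 h 2.01 above the mean of 5 and 8 h. MRPL20 (mL58) was at -1.68, -0.98, -0.53, -0.64, 0.15, 1.46 and 0.11 over the 7 times, the lowest member at 1 h. MRPS35 (mS45) reached 1.26 at 6 h from -1.14 at 2 h, and RSM24 (mS35) 1.09 at 5 h from -1.29 at 1 h. The rest of the 13 members at least 2-fold above 0 h at 6 h, MRPL24, MRPL31 and MRPL39, were at 1.31, 1.18 and 1.07 then and between -0.14 and 0.73 at 5 h. MRP51, a small subunit protein that acts with the leaders of mitochondrial mRNAs, came close with 0.97 at 6 h.

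**Figure D3:**
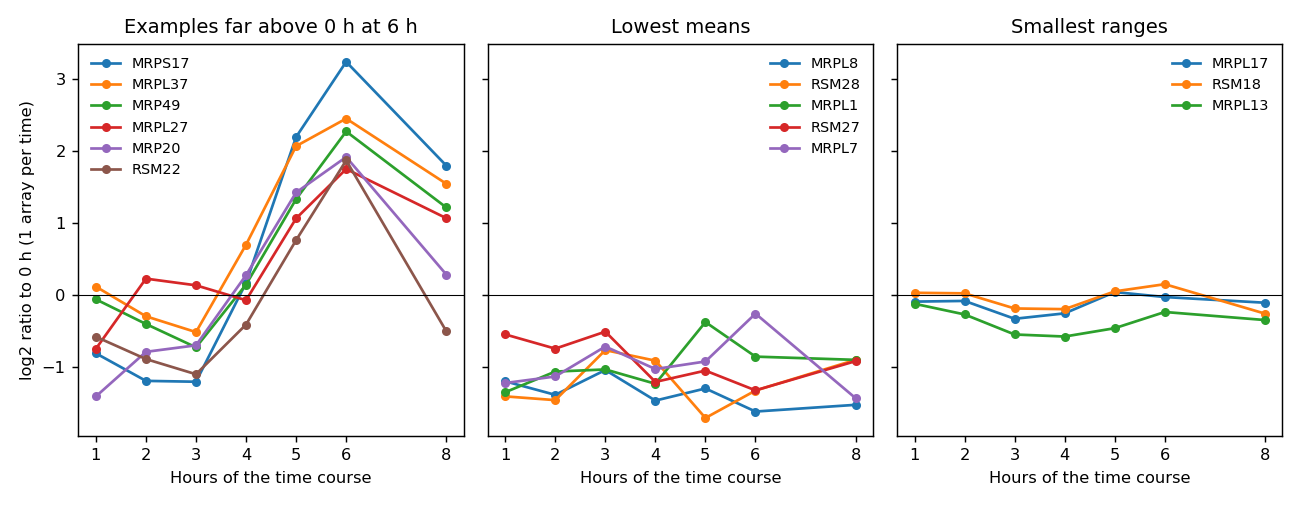
Log2 ratio to 0 h by hour for single genes, 1 array per time: 6 genes far above 0 h at 6 h (left), the 5 genes with the lowest means over the times (middle) and the 3 with the smallest ranges (right). The left panel climbs from below or near 0 h at 3 h to between 1.75 and 3.24 at 6 h, the middle panel stays below 0 h throughout and the right panel stays within 0.58 of it.

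Other members stayed low. Of the 59 members 14 were below 0 h at all 7 times, or 23.7%, against 14.4% of all rows, and none was above 0 h at all times, against 11.7%. MRPL8 (bL17) had the lowest mean of all, -1.36, and was at -1.20, -1.39, -1.04, -1.47, -1.30, -1.62 and -1.53 over the 7 times. It was at least 2-fold below 0 h at every time. RSM28 (mS46), lowest of the small subunit with a mean of -1.21, was at -1.41, -1.46, -0.77, -0.91, -1.71, -1.33 and -0.90 over the 7 times. MRPL1 (uL1), the protein of the stalk where spent tRNA leaves, was at -1.35, -1.06, -1.04, -1.23, -0.38, -0.86 and -0.90 over the 7 times, and MRPL7 (uL5), of the central protuberance, at -1.22, -1.13, -0.72, -1.03, -0.92, -0.26 and -1.44 over the 7 times. Both had means just above -1, with only the values of 5 h and 6 h respectively above -0.5. RSM27 (mS33) was at -0.55, -0.75, -0.51, -1.21, -1.05, -1.33 and -0.92 over the 7 times, RSM10 (uS10) between -1.46 and -0.44, and MRPL28 (mL40) between -1.41 and -0.27. MRPL23 (uL13) held the lowest single value, -1.88 at 8 h, after 0.47 at 2 h. MRP2 (uS14) was below 0 h at all times but 6 h, when it was at 0.06.

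Other members stayed near 0 h. MRPL17 (mL46) stayed between -0.33 and 0.04, a range of 0.37, RSM18 (bS18) between -0.26 and 0.15, MRPL13 (mL50) between -0.58 and -0.12, and MRP13 (mS44) between -0.66 and 0.01. In all, 24 members stayed within 2-fold of 0 h at every time, or 40.7%, against 34.3% of all rows, and the median range over the times was 1.31 in the large and 1.07 in the small subunit, against 1.53 over all rows. At the other end 8 members, MRP20, MRPL20, MRPL24, MRPL36, MRPS17, MRPS35, RSM22 and RSM24, were at least 2-fold below 0 h at one time and at least 2-fold above it at another, or 13.6%, against 4.40% of all rows. Of these, MRPL20, MRPL24, MRPL36, MRPS35 and RSM22 were so far above 0 h in the 6 h array only. Their 5 h values lay between -0.58 and 0.76. The shares without the 6 h array were not computed. Signal over background is unknown, so a flat row cannot be told from one that does not report its transcript.

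The correlation over the 7 times with the other members of the subunit was below 0 in 5 of 35 large and 8 of 23 small subunit genes. Against the member course it was so in 3026 of 5526 rows outside the members. Lowest were MRPL11 with -0.53, MRPL8 with -0.51 and MRPL4 with -0.22 in the large subunit. In the small subunit these were MRPS28 with -0.75, MRP1 with -0.56 and RSM27 with -0.55. MRPL11 (uL10), of the stalk base that recruits translation factors, was lowest at 6 h with -1.11 and highest at 5 h with -0.23. MRPL4 (uL29), beside the tunnel exit like MRP20, was highest at 3 h with 0.40 and near 0 h from 4 h on, between -0.15 and 0.00. MRPS28 (uS15) was at -0.81 at 6 h between 0.24 and 0.05 in the arrays beside it. MRP1 (mS43) was at -0.04 at 1 h and at -1.08 and -1.03 in the last 2 arrays. MRP8, outside the subunits, lay between -0.15 and 0.12 at 5 of the times, at 0.28 at 8 h and at 0.70 at 4 h. These lowest values of MRPL11 and MRPS28 each rest on the 6 h array, since their neighbouring times were nearer to 0 h.

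Proteins with and without a bacterial counterpart were both below 0 h early. At 4 h the median was -0.60 for 22 large subunit genes with a counterpart and -0.58 for 13 without, and in the small subunit -0.59 for 14 with and -0.45 for 8 without, RSM22 being left out as unclear. At 2 h the medians with and without a counterpart were -0.52 and -0.40 in the large and -0.30 and -0.83 in the small subunit. At 5 h they were -0.21 and 0.04 in the large and -0.34 and -0.60 in the small subunit. At 6 h the medians were 0.39 and 0.03 in the large and 0.10 and 0.04 in the small subunit. The upper quartiles of the large subunit at 6 h had the other order, 0.61 with and 1.46 without a counterpart. At 8 h those of the large subunit were -0.61 and -0.37. These differences were not tested either.

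A straight line in hours was fitted to every complete row with limma, with Benjamini-Hochberg adjustment over all 5585. None of the 59 members passed at an adjusted p under 0.05, where 1.34% of all rows passed upward and 0.716% downward. At an unadjusted p under 0.05 there were 9 upward, or 15.3%, against 11.0% of all rows, and 2 downward, or 3.39%, against 12.0%. The steepest was MRPS17 with a slope of 0.61 ± 0.15 (SE) per hour (limma adjusted p = 0.0631), followed by MRPL37 with 0.37 ± 0.11 (limma adjusted p = 0.0962). The 2 downward ones were MRPL23, at -0.22 ± 0.09 per hour (limma adjusted p = 0.174), and MRP1, at -0.15 ± 0.06 (limma adjusted p = 0.177). Scatter about the fitted line was the sole error available, arrays of one course are not independent, and a course that turns counts as scatter.

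Leaving out the 8 h array changed this count. The line then ends at the 6 h array, which stands apart from the others and so weighs on these slopes. No fit left out both arrays. Without the 8 h array 11 members, or 18.6%, rose and none fell, where 8.47% of all rows passed upward and 7.07% downward. These 11 were MRP20, MRP49, MRPL20, MRPL27, MRPL36, MRPL37, MRPS17, MRPS35, RSM22, RSM23 and RSM24, 6 of the large and 5 of the small subunit. Up to 6 h MRP20 rose by 0.69 ± 0.09 (SE) per hour (limma adjusted p = 0.00266) and MRPS17 by 0.91 ± 0.16 (limma adjusted p = 0.00705). MRPL20 rose by 0.54 ± 0.10 (limma adjusted p = 0.00754) and RSM24 by 0.51 ± 0.11 (limma adjusted p = 0.0175). Leaving out any one of the other 6 arrays gave no member in either direction, and leaving out the 1, 2 or 6 h array gave no row of the whole table. A curve with a quadratic term passed for no member, against 5.68% of all rows. After quantile normalization, and with the order of sampling in place of hours, 2 members passed upward, MRPL20 and MRPS17, or 3.39%, where 4.10% and 4.05% of all rows did.

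Differences between times show where the steps were. From 4 to 5 h 8 of the 58 subunit genes were at least 2-fold higher at the later time, against 6.95% of all rows, and none at least 2-fold lower, against 4.91%. From 5 to 6 h 11 were at least 2-fold higher, against 11.2% of all rows, and 1 at least 2-fold lower, against 10.0%. From 6 to 8 h 22 were at least 2-fold lower, against 14.7% of all rows, and none at least 2-fold higher, against 14.6%. Across the whole turn, from 3 to 6 h, 46 of 58 were higher, against 45.3% of all rows, and 21 at least 2-fold higher, against 20.2%, with none at least 2-fold lower, against 20.4%. Before 4 h the steps were small, with a median difference between -0.16 and 0.07 in each subunit for the first 3 intervals.

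**Figure D4:**
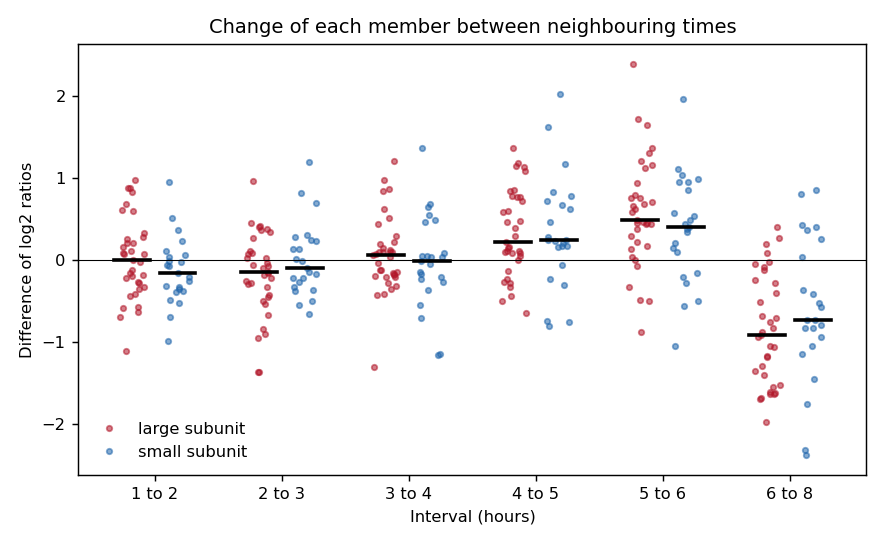
Difference of log2 ratios between neighbouring times for each large subunit gene (red points) and small subunit gene (blue points), with the median of each group as a black line; points are spread sideways for visibility. The medians are near 0 up to 4 h, 0.22 and 0.25 from 4 to 5 h, 0.49 and 0.41 from 5 to 6 h, and -0.91 and -0.73 from 6 to 8 h for the large and the small subunit.

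Members without a full set of values go with these courses only in part. MRPL6 (uL6), empty at 6 h only, lay between -1.43 and -0.62 at the other times. RSM26 (mS42), also empty at 6 h, lay between -0.34 and 0.57 and is listed at exactly 0 at 1 and 8 h. MRPL16 (uL16), a late-joining protein near the tRNA sites in bacterial ribosomes, has a value at 6 h only, 1.43. MRP4, MRPS8 and MRPS16 have rows with no value, and MRP10 and MRPL15 have no row.

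The rest of the mitochondrial translation apparatus was set beside the ribosomal proteins from lists made for this comparison. Of 13 mitochondrial ribosomal proteins with other names 10 had values at all times, and their median at 3, 6 and 8 h was -0.61, 0.11 and -0.71, beside -0.55, 0.18 and -0.49 for the 58 subunit genes. Among them YML6 (uL4) was at 1.32, 2.16 and 0.53 over the last 3 times, and IMG2 (mL49) at -1.55 when YML6 was highest. FYV4 (mS41) was also low, between -1.51 and -0.15, and EHD3 lay between -0.73 and 0.99. Mitochondrial translation factors had a median near 0 from 1 to 4 h, between -0.09 and -0.03, and of 0.36 and 0.61 at 5 and 6 h over 10 genes. MRF1, the release factor, lay between -0.02 and 1.85 with its highest value at 5 h, and MEF2 between -0.93 and 1.34. RRF1, the ribosome recycling factor, was below 0 h throughout and lowest at 6 h with -2.01, whereas MEF1, the elongation factor G, was above 0 h in the 6 h array only, with 0.92. None of these 20 genes passed the test of the slope.

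Aminoacyl-tRNA synthetases of mitochondria had medians from -0.46 to -0.02 over the course (10 of 13 genes). MSE1, the glutamyl enzyme, was at 1.31 in the first array and -0.65 in the last, MSF1 was lowest at 8 h with -2.21, MSY1 stayed between -1.29 and -0.12, and ISM1 was at 1.98 at 6 h. Genes of ribosome assembly and rRNA modification had medians from -0.47 at 4 h to 0.69 at 6 h (8 of 9 genes). MTG2, an assembly GTPase, lay between -1.68 and 0.55, MRM1, the rRNA methyltransferase, between -1.14 and 0.85, OMS1 between 0.01 and 1.81, and SOV1 between -0.48 and 1.17, and all 4 had their highest value at 6 h. A list of translational activators of single mitochondrial mRNAs, to which MBA1 and OXA1 were added, had medians within -0.31 and 0.19 throughout (17 genes). PET111, the activator of the COX2 mRNA, lay between 0.14 and 1.43, MBA1, a membrane receptor of the ribosome, was at 1.77 at 6 h, CBP1 at -1.45 at 6 h, and AEP1 between -0.95 and -0.09. No gene of these 3 lists passed the test of the slope.

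Many proteins made on this ribosome join nuclear-encoded partners in the respiratory chain and ATP synthase. A list of nuclear-encoded respiratory chain and ATP synthase genes, succinate dehydrogenase (SDH) genes included, was compared whether or not they are such partners. Its median was -0.61 in the 3 h array and -1.15, -0.74 and -1.61 in the last 3 (31 of 34 genes). COX12, a cytochrome oxidase subunit named here after its value was seen, fell by 0.40 per hour (limma adjusted p = 0.0479), the 1 gene of the list past the test. ATP2, a catalytic ATP synthase subunit, was lowest at 5 h with -3.13 and ATP17 at -2.34 then, while COX7 was at 1.38 at 6 h and COX9 between -0.50 and 0.72. At 5 h, when the ribosomal proteins of mitochondria were at a median of -0.29, those of the cytosol were at -2.31 (125 genes), and at 6 h the medians were 0.18 and -0.34. Protein import genes had medians from -0.62 in the first array to -0.33 in the last (21 of 28 genes), with no gene past the slope test. TOM70, an import receptor, was at 2.63 at 6 h, TOM6 at 1.41 at 6 h, SSC1, the Hsp70 of the matrix, between -2.76 and -0.95, and PAM17 between -1.79 and -0.70. These differences between lists were not tested.

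**Figure D5:**
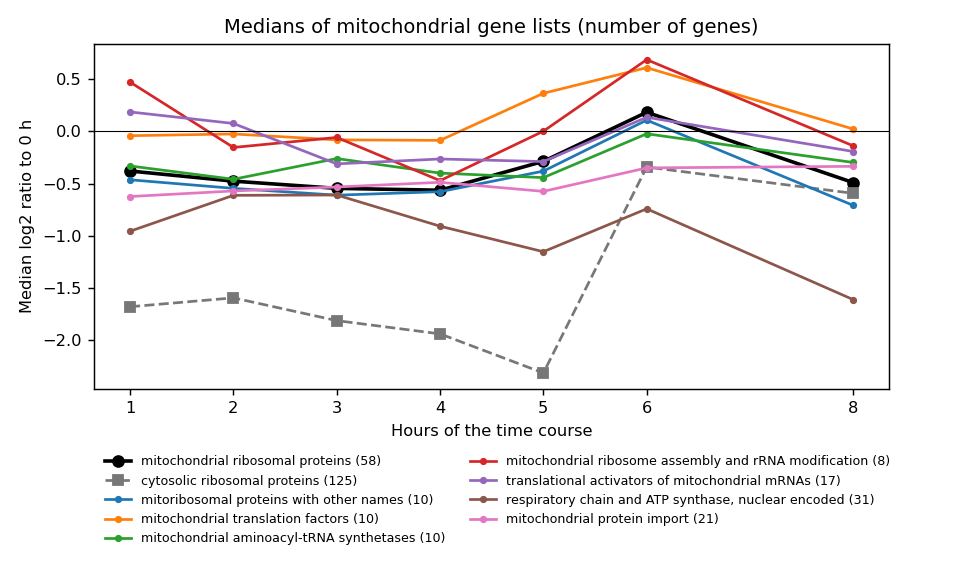
Median log2 ratio to 0 h by hour for the 58 mitochondrial ribosomal protein genes (black), 125 cytosolic ones (grey, dashed) and 7 lists of mitochondrial function, with the number of genes of each in the legend. The black line and that of ribosomal proteins with other names lie close together from -0.61 to 0.18 until 6 h, whereas the respiratory chain median is lowest at 8 h with -1.61 and the cytosolic one at 5 h with -2.31.

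Among regulators, PUF3 was at 0.18, 0.98, 1.32, 1.66, 1.52, 1.07 and 1.17 over the 7 times. It was above 0 h at every time and more than 2-fold above it from 3 h on. HAP4, the limiting subunit of the activator of respiratory genes, was at -0.98, -1.17, 0.49, 1.23, 1.29, 2.44 and 1.26 over the 7 times, and RPO41, the mitochondrial RNA polymerase, between -0.97 at 1 h and 0.52 at 3 h. HAP1, HAP2, HAP3 and HAP5 lay between -1.34 and 0.58 with the exception of HAP5 at 6 and 8 h, at 1.09 and -1.78; MTF1 has no value. None of these 7 measured genes passed the test of the slope (HAP4: limma adjusted p = 0.0715), and no relation between a regulator and the ribosomal proteins was tested.

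Outside the members, the genes whose 7 values correlated best with the median course of the 58 were ESS1, a prolyl isomerase (Pearson r = 0.98), PFA4, a palmitoyltransferase (0.98), MFA1, which encodes the a-factor pheromone (0.98), YOR342C (0.97) and WSC3, a cell wall sensor (0.97). All 5 had their highest value at 6 h, from 1.19 for MFA1 to 2.72 for YOR342C, and the correlation is a description over 7 arrays that share one reference mixture.

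The share of neighbours with a like course was not above that of the whole table. In the order of systematic names 97 pairs of a subunit gene and a neighbour had values at all times, and 20 of them, or 20.6%, had a correlation above 0.5 over the 7 times, against 26.8% of 5027 pairs in the whole table. The measured neighbours of MRPS17, YMR187C and GCV2, were at -0.55 and -0.88, and that of MRP20, RPB7, at -0.05. MRPL31 and CTK1, which face each other with their 3′ ends, were at 0.95, with CTK1 at 1.81 at 5 h where MRPL31 was at 0.73. MRPL24 was at 0.92 with YMR193C-A and MRPL38 at 0.82 with YKL169C, in each case a row on the opposite strand without a gene in the R64 table. The sources used here do not state the strand read by the probes, so a member and a partner on the opposite strand that overlap cannot be told apart.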

How the data were processed

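Transcript levels came from 7 two-colour arrays of 1 time course, the time point in Cy5 and the mixture in Cy3, per the labels' protocols. The deposited values are log2 ratios, which the authors divided by the 0 h ratio, per the series' design text. Array platform, background correction, normalization, spot filters and how the 2 stated cultures enter a column were not given in the sources used here.

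Rows with a value at all 7 times (5585 of 6141) were used as deposited. Of all rows, 5655 matched a locus tag of the R64 gene table. Slopes came from lmFit and eBayes of limma 3.58.1 (R 4.3.3, slope in hours with intercept, 5 residual degrees of freedom), adjusted by Benjamini-Hochberg over all 5585 rows at 0.05. The fit was also run on simulated rows of straight lines with independent noise. Those rows hold no turning course and no dependence between arrays, so that run does not bear on either limit. Counts past 2-fold (log2 of 1) and medians carry no test and were computed in Python 3.11.15 (numpy 2.4.6, pandas 2.3.3); figures were drawn in matplotlib 3.10.9.

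Members and lists were chosen with earlier results of these data known. Named are, per subunit, the 4 highest and 4 lowest means, 3 largest and 3 smallest ranges, 3 least correlated courses, any member past the slope threshold and the extreme values; per list, the 2 highest and 2 lowest means; and PUF3, HAP4, RPO41, IME2, NDT80 and DIT1. All other genes were named after their values were seen. Subunit and homologue assignments come from general knowledge. Alternatives were median centring, quantile normalization, other member and row choices, each time left out, sampling order for hours, a quadratic term, and a trended robust eBayes.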

Additional observations from a re-analysis of the deposited data

How the results depend on the processing

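Under median centring, quantile normalization, the narrower choice of names and the use of all rows with a value, every subunit median kept its sign and all but those of 6 h stayed within 1.5 times the deposited value. At 6 h the large subunit median, 0.34 as deposited, lay between 0.19 with the members named MRPL alone and 0.49 after centring, and the small subunit median, 0.15 as deposited, reached 0.30 after centring. Quantile normalization moved counts of members at least 2-fold below 0 h by over 1.5 times, with 15 in place of 8 at 2 h, 16 in place of 9 at 3 h and 1 in place of 6 at 6 h; the cause was not tested. Members past the slope threshold upward numbered 0 as deposited (9 at an unadjusted p under 0.05 in limma), 2 after quantile normalization (3.39%, where 4.10% of all rows passed), 2 with sampling order in place of hours (4.05% of all rows), and 11 without the 8 h array; downward the number was 0 under every alternative run. Leaving out the 5 members of largest range in each subunit, chosen after seeing the data, gave 6 h medians of 0.025 in the large and -0.198 in the small subunit. The small subunit median thus changed sign. Most of these members have their highest value at 6 h, so lower 6 h medians follow from the choice itself. The small minus large difference, with all rows that have a value at a time, turned from -0.04 to 0.01 at 1 h and from -0.03 to 0.04 at 8 h. No paired analysis was possible because each time has 1 column and the labels give no replicate numbers. Array signal over background is unknown.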
